A study of Homo sapiens with 18 samples.

Results

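The genes described here build the contractile and synaptic apparatus of muscle: ACTC1, MYH7, MYL4 and TTN of the sarcomere, DES of the muscle cytoskeleton, CHRNA1, CHRND and CHRNG of the acetylcholine receptor, and CDH15 of the muscle cell surface. What was measured, by ChIP-seq, was Ser5 Pol II, the form of RNA polymerase II whose C-terminal domain carries phosphate on serine 5. The members were the regions of the authors' count table that overlap 8 windows given as hg19 positions around these 9 genes. Such regions numbered 8 of the 12123 in the table. They fell in 6 windows, with 2 in that of ACTC1, 2 in that of CDH15 and 1 each in those of MYH7, DES, CHRNA1 and CHRND-CHRNG. The windows of MYL4, an embryonic and atrial myosin light chain, and of TTN, the giant elastic protein titin, held no region and have no value here.

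All libraries came from Rh30, a human alveolar rhabdomyosarcoma line, in which the fusion transcription factor PAX3-FOXO1 carries an FKBP tag. The small molecule dTAG47 directs a protein with this tag to degradation. Cells received 500 nM dTAG47 for 2 h, 500 nM dTAG47 for 4 h, or DMSO, the solvent, with 2 libraries in each group and the tagged fusion in every group. The sources do not say whether the line is a single clone, and the level of the fusion protein was not analysed here. Nor do the labels tell whether replicate libraries were grown as separate cultures. Each p-value therefore reflects the variation among these 6 libraries only, largely pooled over regions, and that variation may be technical. ChIP on a whole culture cannot tell fewer cells with Pol II at a region from less Pol II per cell.

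Rhabdomyosarcoma cells resemble muscle precursors that stopped before full differentiation, and they express early muscle genes under the control of myogenic transcription factors. Those factors bind the E-box (CANNTG, where N is any base), and the muscle actin genes also carry the CArG box, the site of serum response factor. Serine 5 is phosphorylated as Pol II begins transcription, so Ser5 Pol II is highest near start sites and is also found within genes and at enhancers. PAX3-FOXO1 acts largely through enhancers of muscle lineage genes.

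RefSeq promoter sequences in build GRCh38.p14, from 250 bases before the annotated start to 50 after it, were at hand for 4 of the 9 genes: ACTC1, CHRNA1, CHRND and TTN. Those of the 3 genes with a region are shown because their windows each hold a region on the side of the gene's start. Capitals mark each E-box and the CArG box. ACTC1 lies at chr15:34795500-34795799 on the minus strand, CHRNA1 at chr2:174764423-174764722 on the minus strand and CHRND at chr2:232525910-232526209 on the plus strand. These positions belong to another build than the regions below and were not converted, so no base of a sequence is tied to a region.
ACTC1: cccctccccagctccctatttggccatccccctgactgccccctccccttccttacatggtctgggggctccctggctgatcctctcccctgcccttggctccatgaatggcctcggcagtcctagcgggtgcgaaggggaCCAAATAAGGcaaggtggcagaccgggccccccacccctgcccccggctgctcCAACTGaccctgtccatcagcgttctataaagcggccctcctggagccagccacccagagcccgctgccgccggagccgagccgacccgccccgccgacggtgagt
CHRNA1: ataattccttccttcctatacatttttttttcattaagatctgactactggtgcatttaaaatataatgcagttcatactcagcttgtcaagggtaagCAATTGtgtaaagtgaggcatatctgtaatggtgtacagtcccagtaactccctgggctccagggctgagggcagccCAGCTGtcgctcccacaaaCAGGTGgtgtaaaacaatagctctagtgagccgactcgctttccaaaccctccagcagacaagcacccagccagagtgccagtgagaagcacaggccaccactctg
CHRND: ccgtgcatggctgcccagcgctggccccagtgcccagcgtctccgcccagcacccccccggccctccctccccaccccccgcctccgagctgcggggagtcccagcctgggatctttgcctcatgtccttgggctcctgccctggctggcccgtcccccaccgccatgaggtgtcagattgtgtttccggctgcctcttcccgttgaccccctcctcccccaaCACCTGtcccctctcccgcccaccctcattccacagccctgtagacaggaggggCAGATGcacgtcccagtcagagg
The ACTC1 sequence held a CArG box starting 109 bases before the gene's start, an E-box 56 bases before it and a TATAAA motif 31 bases before it. That of CHRNA1 held 3 E-boxes, at 152, 75 and 56 bases before the start, and the middle of these was CAGCTG, a form bound by MyoD and myogenin. CHRND had an E-box 27 bases before the start and another 27 bases after it. Both strands were searched, and every CAGCTG counts as an E-box too. Among 35116 promoters of this length, 68.7% held an E-box, 17.9% the form CAGCTG, 11.5% the TATAAA motif and 1.29% a CArG box. A match describes the letters only and is no evidence of a bound factor.

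Total counts in the table lay between 962251 in 4 h library B and 1792013 in DMSO library A, and all regions are 400 bases long, so levels compare per length. Levels are given as CPM, counts divided by the TMM-adjusted library total and set to a common depth. The 3 regions with the highest counts in the table took 2.61% (A) and 3.21% (B) of counts at 2 h, 2.61% (A) and 4.17% (B) at 4 h, and 1.77% (A) and 2.61% (B) in DMSO.

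Before the comparisons, the levels themselves differed widely among these genes. In DMSO the CDH15 region with the higher position had the most signal, 221 ± 38.3 CPM (SD, n = 2), more than 97.5% of all regions. Next came the CDH15 region with the lower position (111 ± 1.85 CPM), the ACTC1 region with the higher position (108 ± 11.6 CPM), DES (94.9 ± 1.67 CPM) and CHRND-CHRNG (90.2 ± 14.4 CPM). These 4 followed each other closely, and each differed from the next by less than the larger of their SDs, except the ACTC1 region and DES, which differed by slightly more. The MYH7 region (54.3 ± 6.49 CPM), CHRNA1 (53.0 ± 2.44 CPM) and the ACTC1 region with the lower position (48.3 ± 7.20 CPM) were the lowest, below the median of all regions, 63.8 CPM. Neighbours among these 3 also differed by less than the larger of their SDs.

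ACTC1 encodes cardiac alpha-actin, the thin filament actin of the heart and of developing skeletal muscle. Ser5 Pol II rose within its window after dTAG47, at the region on chromosome 15 from 35081441 to 35081841. The gene is on the minus strand, so this region lies toward the gene's end, 2141 bases above the window's lower edge. Given as library A then B, it had 77.5 and 84.4 CPM at 2 h, 80.0 and 113 CPM at 4 h, and 43.2 and 53.4 CPM in DMSO, and the values below follow that order. All 4 dTAG47 libraries lay above both DMSO libraries, and 4 h library B was the highest. How many of all regions separate in this way was not counted, so here and below it only describes the values. The counts behind these values were 111 and 111 at 2 h, 127 and 106 at 4 h, and 80 and 78 in DMSO. The rise was 1.69-fold at 2 h (95% interval 1.32 to 2.16, log2 fold change 0.76, SE 0.18, edgeR adjusted p = 0.00756) and 1.95-fold at 4 h (1.53 to 2.49, log2 fold change 0.97, SE 0.17, edgeR adjusted p = 0.000393).

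Only 112 of all regions had a larger log2 fold change at 2 h, and 39 at 4 h. The ACTC1 region stood at the 30.3rd percentile of all regions in DMSO and at the 61.3rd over all 6 libraries. The 2 h call ended without DMSO library A (log2 fold change 0.60, adjusted p = 0.151) and without 2 h library B (0.70, adjusted p = 0.0588), while the 4 h call held without any single library (0.75 to 1.24, highest adjusted p = 0.0244). The level at this region moved with the share that the 3 highest regions took of a library's counts, with 4 h library B highest and DMSO library A lowest in both. With that share as a covariate, chosen after seeing the data, the log2 fold change was 0.53 at 2 h and 0.61 at 4 h, and neither was called (adjusted p = 0.0771 and 0.0964). The 3 libraries with an equal share of 2.61% had 77.5 CPM (2 h library A), 80.0 CPM (4 h library A) and 53.4 CPM (DMSO library B).

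The second ACTC1 region, from 35087463 to 35087863, ends 1137 bases below the window's upper edge, on the side of the gene's start. It had 140 and 133 CPM in the 2 h libraries, 146 and 148 CPM in the 4 h libraries, and 99.9 and 116 CPM in the DMSO libraries. The dTAG47 and DMSO libraries did not overlap here either, which again was not counted over all regions. The log2 fold change was 0.35 at 2 h (95% interval 0.05 to 0.64, edgeR adjusted p = 0.234) and 0.45 at 4 h (0.15 to 0.74, adjusted p = 0.107), so neither passed the threshold. Without DMSO library B it was called at 4 h (0.57, adjusted p = 0.0381). It was also called at 4 h with a replicate block by column letter, which no label explains (0.45, edgeR adjusted p = 0.0108).

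The ratio of raw counts of the lower to the upper ACTC1 region does not depend on how libraries are scaled. It was 0.552 and 0.634 at 2 h, 0.550 and 0.763 at 4 h, and 0.432 and 0.459 in DMSO. Every dTAG47 library was above both DMSO libraries, and 4 h library B was again the highest. Like the level, the ratio went up with the part of a library that the 3 highest regions took. It was 0.432 in DMSO library A (1.77%), 0.634 in 2 h library B (3.21%) and 0.763 in 4 h library B (4.17%). At an equal 2.61% it was 0.552 in 2 h library A, 0.550 in 4 h library A and 0.459 in DMSO library B. Whether treatment or this library difference lies behind the ratio was not tested. Averaged on the log2 scale, the 4 dTAG47 libraries were 0.47 above the 2 DMSO libraries (exact permutation test, two-sided p = 0.133). The smallest p this design allows is 0.0667. The ratio was chosen after the counts had been seen.

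**Figure D1:**
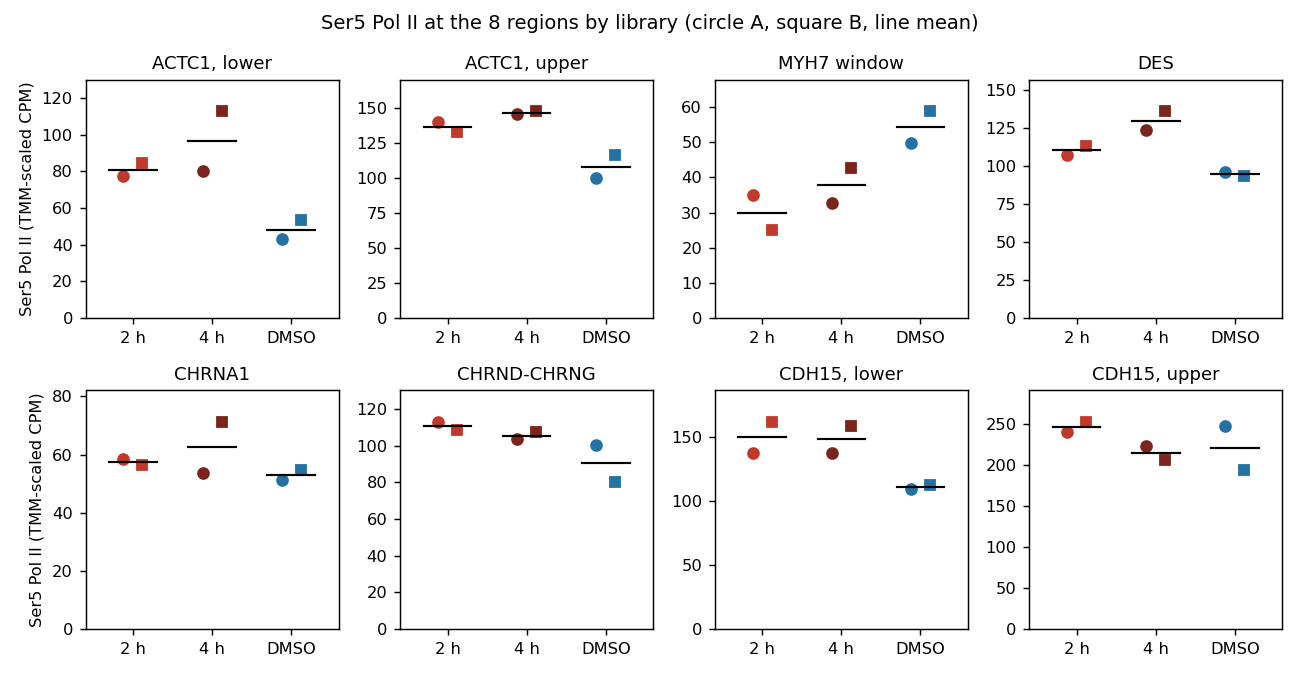
Ser5 Pol II in TMM-scaled CPM (vertical axes, each from 0) at the 8 regions in 2 h dTAG47, 4 h dTAG47 and DMSO libraries. Circles are library A, squares library B and lines the mean of a group. At the lower ACTC1 region all dTAG47 libraries, from 77.5 to 113 CPM, lie above DMSO, and at the MYH7 region all, from 25.1 to 42.6 CPM, lie below it.

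MYH7 encodes the slow beta-myosin heavy chain, the motor of slow skeletal muscle and of the heart ventricle. Its window was set to include sequence upstream of the gene, and its only region, on chromosome 14 from 23907504 to 23907904, ends 2096 bases below the window's upper edge. MYH7 is read toward lower positions, so the region lies at the upstream end of the window. An annotation of hg19 was not used here, so it was not tied to the promoter or to another element. Ser5 Pol II fell here at 2 h. The region had 34.9 and 25.1 CPM at 2 h, 32.8 and 42.6 CPM at 4 h, and 49.7 and 58.9 CPM in DMSO. All 4 dTAG47 libraries lay below both DMSO libraries. Counts were 50 and 33 at 2 h, 52 and 40 at 4 h, and 92 and 86 in DMSO.

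At 2 h the MYH7 region was 1.78-fold below DMSO (95% interval 1.32 to 2.41, log2 fold change -0.84, SE 0.22, edgeR adjusted p = 0.0214), and 23 of all regions had a more negative value. At 4 h the log2 fold change was -0.55 (95% interval -0.98 to -0.13, edgeR adjusted p = 0.206) and was not called. The direct comparison of 4 h with 2 h gave 0.28 (95% interval -0.21 to 0.77, adjusted p = 0.998), so the times were not shown to differ. The 2 h call ended without DMSO library B (-0.71, adjusted p = 0.126) and without 2 h library B (-0.62, adjusted p = 0.301). Among the 3 libraries with an equal share of 2.61% in the 3 highest regions, the MYH7 region had 34.9 CPM in 2 h library A, 32.8 CPM in 4 h library A and 58.9 CPM in DMSO library B. With that share as a covariate, chosen after seeing the data, the fall was called at 2 h (log2 fold change -0.96, edgeR adjusted p = 0.0021). At 4 h it was not (-0.75, adjusted p = 0.0999).

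DES encodes desmin, the intermediate filament that ties sarcomeres to each other and to the membrane and that serves in pathology as a marker of muscle tumours. Its region, on chromosome 2 from 220282975 to 220283375, starts 875 bases above the window's lower edge, on the side where the gene starts. It had 108 and 113 CPM in the 2 h libraries, 124 and 136 CPM in the 4 h libraries, and 96.1 and 93.8 CPM in the DMSO libraries. The groups did not overlap, with DMSO lowest and 4 h highest, but the share of all regions that do so was not counted. The log2 fold changes of 0.22 at 2 h (95% interval -0.08 to 0.51, edgeR adjusted p = 0.542) and 0.44 at 4 h (0.15 to 0.73, adjusted p = 0.113) did not pass the threshold. With a replicate block by column letter, which no label explains, the 4 h value was called (edgeR adjusted p = 0.0208).

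The acetylcholine receptor of the neuromuscular synapse is a channel built of several subunits. CHRNA1 encodes the alpha subunit, which binds the transmitter, CHRND the delta subunit and CHRNG the gamma subunit of the fetal receptor. The CHRNA1 region, on chromosome 2 from 175628890 to 175629290, ends 1010 bases below the window's upper edge, on the side of the gene's start. It had 58.7 and 56.2 CPM in the 2 h libraries, 53.6 and 71.4 CPM in the 4 h libraries, and 51.3 and 54.7 CPM in the DMSO libraries. At 4 h its library A lay within the DMSO values and library B was the highest of all. Log2 fold changes were 0.12 at 2 h (95% interval -0.24 to 0.48, edgeR adjusted p = 0.833) and 0.20 at 4 h (-0.16 to 0.56, adjusted p = 0.716).

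CHRND and CHRNG are neighbours and shared a window, whose only region, on chromosome 2 from 233391008 to 233391408, starts 1308 bases above the lower edge. In RefSeq CHRND is the gene at the lower positions, so the region is at the CHRND end and the rest of the window, where CHRNG lies, held none. The region had 113 and 109 CPM in the 2 h libraries, 103 and 108 CPM in the 4 h libraries, and 100 and 80.1 CPM in the DMSO libraries. DMSO library A lay just under the 4 h libraries, and DMSO library B was the lowest. Log2 fold changes were 0.29 at 2 h (95% interval -0.01 to 0.59, edgeR adjusted p = 0.373) and 0.21 at 4 h (-0.10 to 0.52, adjusted p = 0.612).

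CDH15 encodes M-cadherin, a calcium-dependent adhesion protein of satellite cells and myoblasts. Its first region, on chromosome 16 from 89238475 to 89238875, starts 1375 bases above the window's lower edge, the side on which the gene starts. It had 138 and 162 CPM in the 2 h libraries, 137 and 159 CPM in the 4 h libraries, and 110 and 112 CPM in the DMSO libraries. All dTAG47 libraries lay above DMSO, a separation not counted over all regions, and at both times library B exceeded library A. The log2 fold change was 0.43 at 2 h (95% interval 0.14 to 0.72, edgeR adjusted p = 0.105) and 0.40 at 4 h (0.11 to 0.70, adjusted p = 0.177), neither past the threshold. With a replicate block by column letter, which no label explains, both were called (edgeR adjusted p = 0.0135 and 0.0278).

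The second CDH15 region, from 89251550 to 89251950, starts 14450 bases above the lower edge, well inside the window, and it had the highest level of the 8. It had 240 and 253 CPM in the 2 h libraries, 223 and 206 CPM in the 4 h libraries, and 248 and 194 CPM in the DMSO libraries. The DMSO values spanned those of 4 h and 2 h library A. Log2 fold changes were 0.15 at 2 h (95% interval -0.14 to 0.45, edgeR adjusted p = 0.697) and -0.04 at 4 h (-0.34 to 0.26, adjusted p = 0.952). The ratio of its raw counts to those of the first region was 1.75 and 1.56 in the 2 h libraries, 1.62 and 1.30 in the 4 h libraries, and 2.26 and 1.73 in the DMSO libraries. DMSO library B fell among the dTAG47 libraries here. As at ACTC1, the counts of the gene's regions became more alike as the share of the 3 highest regions rose. The ratio was 2.26 in DMSO library A (share 1.77%), 1.56 in 2 h library B (3.21%) and 1.30 in 4 h library B (4.17%). The libraries with a share of 2.61% had 1.62 to 1.75. The cause was not tested, and this ratio too was chosen after the counts had been seen. On the log2 scale the dTAG47 mean was lower by 0.35 (log2 ratio difference -0.35, exact permutation test, two-sided p = 0.200, smallest possible 0.0667).

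**Figure D2:**
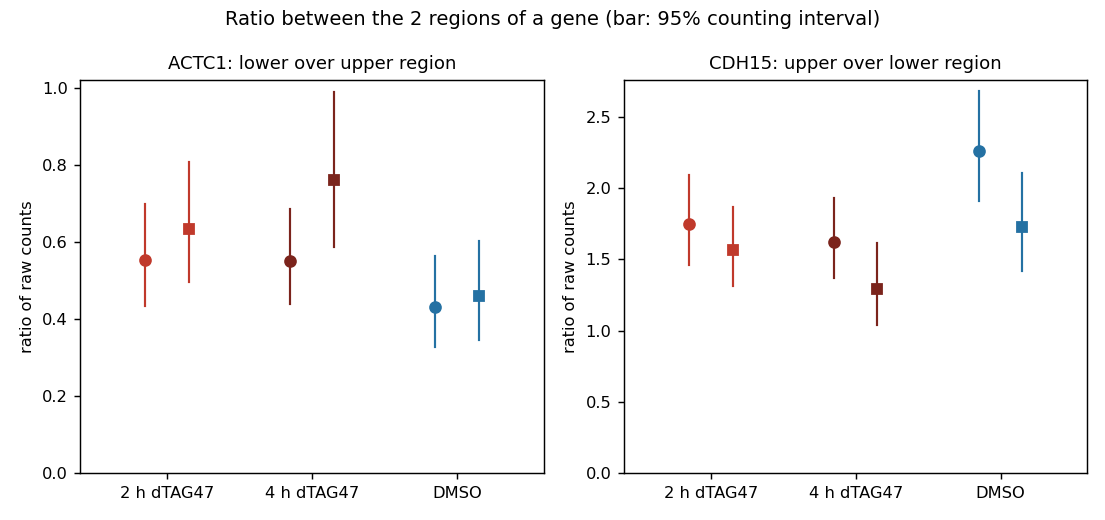
Ratio of raw counts between the 2 regions of ACTC1 (lower over upper) and of CDH15 (upper over lower) in each 2 h, 4 h and DMSO library, circles for A and squares for B, with bars for 95% exact binomial intervals that cover counting error only. The ACTC1 ratio is 0.550 to 0.763 with dTAG47 and 0.432 to 0.459 in DMSO, and the CDH15 ratios overlap.

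Set against the whole table, 1 of the 8 regions fell and 1 rose at 2 h, where 0.396% of all regions fell and 2.22% rose (edgeR quasi-likelihood test, adjusted p under 0.05). At 4 h 0 fell and 1 rose, where 0.487% of all regions fell and 1.52% rose. With total count scaling 87 regions of the table fell and 166 rose at 2 h, against 48 and 269 with TMM, and 83 fell and 120 rose at 4 h, against 59 and 184. The 8 regions lie in few genes and the 2 calls at 2 h came from ACTC1 and the MYH7 window, so the members' shares rest on single regions. Without adjustment, 4 of the 8 had p under 0.05 at 2 h, where 14.3% of all regions did, and 5 at 4 h, where 13.3% did. The log2 fold change was above 0 at 7 of the 8 regions at 2 h and at 48.4% of all regions, with a median of 0.25 for the 8 and -0.01 for all. At 4 h it was above 0 at 6 of the 8 and at 48.6% of all regions, with medians of 0.31 and -0.01. Both times were set against the same DMSO libraries. Regions with a mean of at least 100 CPM, 5 of the 8 among them, had a median of 0.06 at 2 h and 0.04 at 4 h over 2592 regions.

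**Figure D3:**
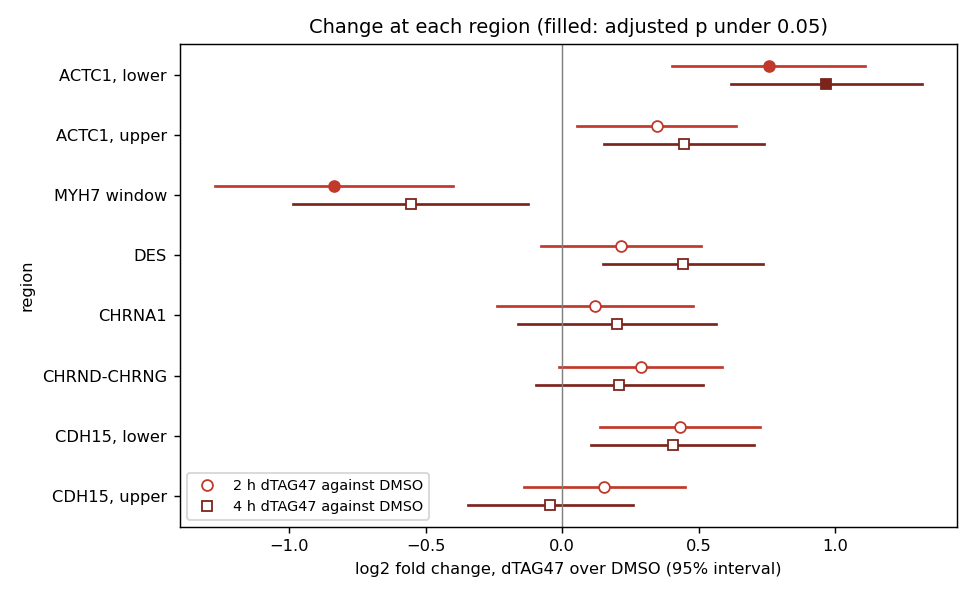
Log2 fold change of dTAG47 over DMSO (horizontal axis) at each region, for 2 h (circles) and 4 h (squares), with 95% intervals. Filled symbols passed an adjusted p under 0.05. They are the lower ACTC1 region at both times (0.76 and 0.97) and the MYH7 window at 2 h (-0.84).

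**Figure D4:**
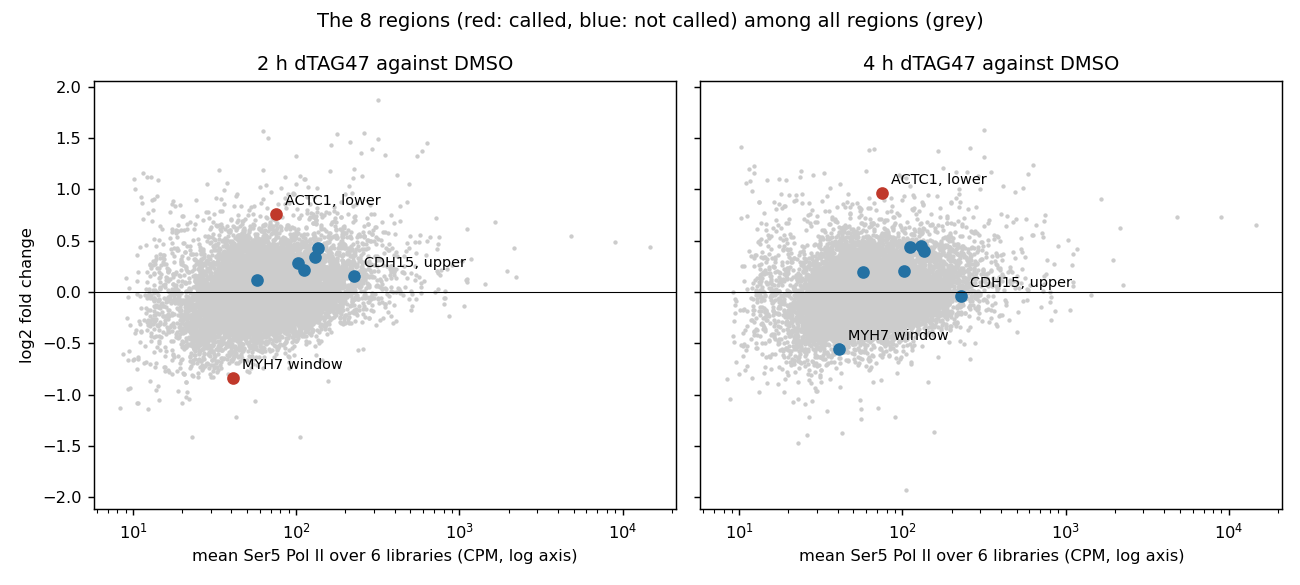
Log2 fold change (vertical) against mean level in CPM (horizontal, log axis) for all 12123 regions in grey and the 8 regions in red where called and blue where not, at 2 h and 4 h. The lower ACTC1 region lies at the upper side of the cloud at both times and the MYH7 window at its lower side, while the others lie within it.

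Set directly against 2 h, 4 h gave 0 called regions among the 8 and 0 in the whole table, or 0% in either direction (edgeR, lowest adjusted p = 0.998). At an unadjusted p under 0.05, 0 of the 8 and 251 lower and 145 higher regions of the table were found, and DESeq2 also called 0. Log2 fold changes of the 8 lay between -0.20 (the upper CDH15 region) and 0.28 (MYH7). For the lower ACTC1 region the value was 0.21 (95% interval -0.12 to 0.54), which rests on 4 h library B, since without it the value was -0.01.

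None of the neighbouring regions was called. The nearest region on either side of each member outside the windows, 12 regions in all, lay 12.9 to 564.8 kb away. At 2 h these had log2 fold changes of -0.36 to 0.24 and at 4 h of -0.35 to 0.37, with 0 called at either time. Of all regions, 2.61% were called at 2 h and 2% at 4 h in either direction, so 0 of 12 is near that share. ACTC1 had no close neighbour, with the next regions 180.2 kb above and 274.7 kb below the lower region (log2 fold changes -0.34 and -0.17 at 2 h, 0.05 and -0.04 at 4 h). The MYH7 region was 72.7 kb from the next below and 117.7 kb from the next above (-0.04 and -0.08 at 2 h, 0.07 and -0.10 at 4 h). The closest rows left out by the window limits began 1457 bases past that of CDH15 (0.24 at 2 h, 0.08 at 4 h) and 2888 bases past that of CHRND-CHRNG (0.19 and 0.37).

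For each gene the region elsewhere with the most similar profile was taken as that with the highest Pearson correlation of log2 CPM over the 6 libraries, out of 10361 regions whose mean count was 50 or more. Where a gene had 2 regions, only that with the higher mean CPM was used. The lower regions of ACTC1 and CDH15, the former called at both times, therefore have no match here. With 6 points and so many regions searched, high values arise easily, and they are given as a description. For the upper ACTC1 region it began at 7590498 on chromosome 17 (r = 0.996), for MYH7 at 121993427 on chromosome 4 (r = 0.986) and for DES at 32077526 on chromosome 20 (r = 0.993). For CHRNA1 it began at 29652659 on chromosome 20 (r = 0.984), for CHRND-CHRNG at 30960371 on chromosome 16 (r = 0.990) and for the upper CDH15 region at 38239886 on chromosome 8 (r = 0.986). What lies behind the high values was not tested.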

How the data were processed

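Raw counts per region, whole numbers from 3 to 22091, were deposited by the authors for 12123 regions in 6 columns. Per the submitters' processing notes, the builds were hg19 and dm3 and the tools included Bowtie2, MACS2, DiffBind, DESeq2 and Trimmomatic 0.32, with no role stated. Region calling, the handling of duplicates and input, and whether positions count from 0 or 1 are not given in these sources. Columns carry the letters A and B and the labels numbers, so columns were tied to groups only. Of the 18 samples, the 12 made with other antibodies were not analysed here.

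Counts were tested with the edgeR 4.0.16 quasi-likelihood test in R 4.3.3, with TMM factors, all 6 libraries and all regions in 1 fit, and Benjamini-Hochberg adjustment over 12123 regions. The filter filterByExpr removed 0 regions. SE is the log2 fold change divided by the square root of F, and intervals are 95%. The common dispersion was 0.00648. Replicate libraries were compared by chi-square and differed by 1.50 to 2.33 per degree of freedom, more than counting error. Each library was treated as 1 sample, but this excess does not show that libraries are independent, since it may be technical. No spike-in counts were used, so a uniform change of the whole table would be missed. All member regions are named. A wider list of muscle genes was not tested, since hg19 annotation was not used here. Members and lists were chosen with earlier results of these data known. Alternatives, with DESeq2 1.42.0 among them, are given in the closing section.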

Additional observations from a re-analysis of the deposited data

How the results depend on the processing

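Of 379 values of single regions under other settings, 359 kept their direction and their side of the threshold, 6 lost a call, 5 gained one and 9 changed sign. The 9 sign changes were all at regions or comparisons that were not called. With the covariate for the 3 highest regions, CHRNA1 had -0.022 at 2 h and -0.018 at 4 h and the upper CDH15 region 0.10 at 4 h. Leaving out 1 library gave -0.19 to 0.15 for the upper CDH15 region at 4 h against DMSO. For 4 h against 2 h it gave -0.011 to 0.48 at the lower ACTC1 region, -0.10 to 0.31 at CHRNA1 and -0.14 to 0.10 at the lower CDH15 region. The cause was not tested.

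Of the 8 regions, 1 fell and 1 rose at 2 h and 0 fell and 1 rose at 4 h. With the covariate 0 rose at 2 h and 0 at 4 h, while 1 fell at 2 h and 0 at 4 h. DESeq2 called 0 falls and 0 rises at 2 h, where it gave no adjusted p for the lower ACTC1 region (log2 fold change 0.75) or the MYH7 region (-0.85), so these calls are not counted as lost. At 4 h it called the lower ACTC1 region (0.99, adjusted p = 0.0261). Leaving out 1 library gave 0 to 1 falls and 0 to 1 rises at 2 h and 1 to 2 rises at 4 h. RLE factors, total count scaling, only the compared groups, a minimum mean of 50 counts, no filter (which removed nothing to begin with), robust dispersion and omission of the 3 highest regions moved none of these counts.

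A replicate block by column letter gave 2 rises among the 8 at 2 h and 4 at 4 h, adding the lower CDH15 region (0.42, adjusted p = 0.0135) at 2 h, and at 4 h the upper ACTC1 region (0.45, 0.0108), DES (0.44, 0.0208) and the lower CDH15 region (0.41, 0.0278). The letters are not tied to the labels' replicate numbers, and deviations of same-letter libraries from their group means correlated across regions with r of 0.157 to 0.278. Over the whole table, falls and rises numbered 48 and 269 at 2 h and 59 and 184 at 4 h. They were 230 and 629, then 203 and 540, with the block, 135 and 364, then 109 and 191, with the covariate, 3 and 96, then 5 and 53, with DESeq2, and 81 and 366, then 72 and 207, with only the groups compared. Without single libraries they ranged from 15 to 87 and 127 to 365 at 2 h, and from 27 to 71 and 89 to 314 at 4 h. Low counts, 33 to 92 at the MYH7 region, limit the precision there.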
